A study of Rattus norvegicus with 2 samples.

Results

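Zinc carriers, metallothioneins and the metal-responsive transcription factor Mtf1 were examined in RBL-2H3 cells, a line from a rat basophilic leukaemia that serves as a model of mast cells. Members were the listed symbols beginning Slc30a or Slc39a and ending in a number, together with Mtf1, Mt1, Mt1m, Mt2A and Mt3. They came to 24 of the 15409 symbols in the table, namely 7 Slc30a efflux carriers, 12 Slc39a uptake carriers, 4 metallothioneins and Mtf1. They had 29 listed transcripts, and each symbol stood for 1 Ensembl gene identifier. The remaining Slc30a and Slc39a genes of the rat were not analysed here. The treated library came from RBL-2H3 cells given PM2.5, fine airborne particulate matter, plus IgE and DNP-HSA, the antigen that crosslinks that IgE on the cell surface. The other library came from RBL-2H3 cells given normal saline. The labels name the treated library PM100 without a dose unit, give no time, and do not state whether the saline cells received IgE or antigen, so particle and antigen effects cannot be told apart. With 1 library per group there is no replicate check and no test between conditions, and each difference below is a difference between these libraries.

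Zinc is stored bound in vesicles and proteins, and very little of it is free in the cytosol. Carriers of the Slc30a family (ZnT proteins) move zinc out of the cytosol, across the plasma membrane or into organelles, and carriers of the Slc39a family (ZIP proteins) move it into the cytosol from outside or from organelles. Metallothioneins are small cysteine-rich proteins that bind zinc and copper, and Mtf1 senses zinc and binds metal response elements in front of the metallothionein genes and of Slc30a1. In mast cells, crosslinking of the IgE receptor is known to release zinc from the perinuclear region, and the granules are rich in zinc.

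The promoters of the metallothioneins and of Slc30a1 are shown first because Mtf1 is known, from mouse and human cells, to act on metallothionein genes and Slc30a1 through this element. Its core was searched as TGCACNC and TGCGCNC on both strands, where matches on opposite strands can overlap at the same bases. RefSeq promoter windows ran from 250 bases before to 50 bases after each annotated start, and 20 of the 24 members matched a window by symbol, the unmatched ones being Mt1m, Slc30a7, Slc39a4 and Slc39a14. Of all 33469 rat windows of this length, 24.2% held at least 1 match. The 250 bases before the start are printed 5′ to 3′ on the strand of the gene, with matches to the core in capitals.

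Mt1 (GRCr8 chr19:10832976-10833225, minus strand): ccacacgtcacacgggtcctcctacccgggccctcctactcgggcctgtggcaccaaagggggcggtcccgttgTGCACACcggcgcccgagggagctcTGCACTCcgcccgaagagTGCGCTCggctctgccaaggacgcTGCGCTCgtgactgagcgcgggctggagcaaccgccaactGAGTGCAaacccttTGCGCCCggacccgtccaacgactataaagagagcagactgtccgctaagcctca
Mt2A (GRCr8 chr19:10838709-10838958, minus strand): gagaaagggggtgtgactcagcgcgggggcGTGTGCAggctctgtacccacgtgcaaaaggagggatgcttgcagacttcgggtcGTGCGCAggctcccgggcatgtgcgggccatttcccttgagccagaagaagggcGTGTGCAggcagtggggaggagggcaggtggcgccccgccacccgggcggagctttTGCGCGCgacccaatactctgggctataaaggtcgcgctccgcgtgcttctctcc
Mt3 (GRCr8 chr19:10856081-10856330, minus strand): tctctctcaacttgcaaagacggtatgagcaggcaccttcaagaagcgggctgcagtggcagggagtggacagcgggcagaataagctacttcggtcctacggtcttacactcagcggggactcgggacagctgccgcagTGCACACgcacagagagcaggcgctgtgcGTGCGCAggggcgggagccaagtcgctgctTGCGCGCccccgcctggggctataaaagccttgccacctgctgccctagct
Slc30a1 (GRCr8 chr13:106021769-106022018, plus strand): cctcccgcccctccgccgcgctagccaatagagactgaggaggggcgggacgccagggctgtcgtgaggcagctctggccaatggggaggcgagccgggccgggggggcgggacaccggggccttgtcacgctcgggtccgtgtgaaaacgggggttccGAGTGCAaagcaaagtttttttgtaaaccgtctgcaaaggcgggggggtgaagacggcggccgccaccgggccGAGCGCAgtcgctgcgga

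Mt1 held 6 matches in its window, a number reached by 0.0388% of all windows, with 5 on the strand of the gene. Mt2A held 4 matches and Mt3 held 3, and at least as many were found in 0.439% and 1.68% of all windows. Slc30a1 held 2 matches, both on the other strand, and 6.36% of windows held at least 2. In all, 12 of the 20 members with a window held at least 1 match, among them Mtf1 with 2, beside 24.2% of all windows. That share is per window, whereas members are counted per gene and Slc30a2 and Slc39a7 have 2 windows each. The 2 matches of Slc30a5, and likewise those of Slc39a11, overlap on opposite strands at a single site. The windows of Slc39a3, Slc39a5, Slc39a6, Slc39a8, Slc39a9, Slc39a10, Slc30a6 and Slc30a9 held none. A match is a description of the letters and does not show binding in these cells.

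**Figure D1:**
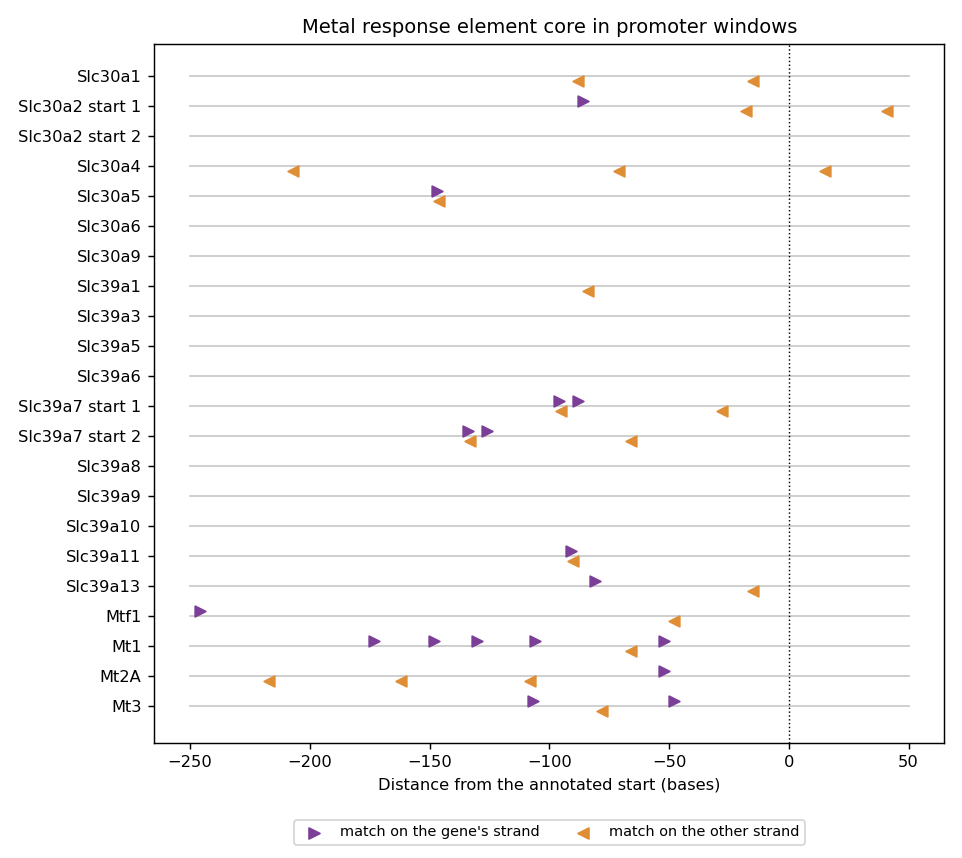
Matches to the metal response element core in RefSeq promoter windows of 20 members, by distance from the annotated start in bases (250 before to 50 after). Arrows to the right are matches on the strand of the gene and arrows to the left matches on the other strand. Mt1 has the most, at 6, and Slc30a2 and Slc39a7 have a row for each of 2 annotated starts.

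The treated library held 3964955 reads and the saline library 7279671, so the saline library was 1.84 times as deep. The authors' values, log2 of a normalised read count plus 1, were returned to the linear scale and summed over the transcripts of each symbol. Normalised counts are not divided by transcript length, so they are compared between libraries for 1 gene and not between genes. A log2 fold sets the treated library over the saline one, with 1 added to each normalised count, and an interval is the exact 95% interval of the ratio without the added 1, which covers counting error only. Of 14 mast cell or basophil markers 12 were measured, all with reads, and together they made 0.462% of normalised counts in the treated library and 0.501% in the saline library. Their log2 folds ran from -1.07 for the histamine enzyme Hdc to 1.74 for the protease Cpa3, with Fcer1a (0.44) and Ms4a2 (0.79), subunits of the IgE receptor, above 0 and Kit (-0.21) and Gata2 (-0.45) below it. Of 5 macrophage markers 3 were measured, with summed normalised counts of 510.4 in the treated library and 1273 in saline cells. Most of this sum was Csf1r (472.4 against 1215), while Adgre1 had 38.0 against 41.6. Cd68 among them had 0 treated reads against 19 saline reads. Fibroblast markers (3 of 5 measured) summed to 302.3 in the treated library and 225.5 in saline cells. Col3a1 made most of that sum (277.5 against 209.0), Col1a1 had 15 against 16 reads and Dcn 0 against 3. The epithelial marker Krt8 (1 of 4 measured) had 12 against 11 reads. The lymphocyte markers were not analysed here. The part of these markers in the results below was not tested.

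All 24 members reached a normalised count of 1 in 1 library or both. Counting differences of at least 2-fold in either direction (a log2 fold of 1 or more), 1 member was higher in the treated library (Mt2A) and 3 were lower (Mtf1, Slc39a5 and Slc39a9). Mt2A came short of it, at 0.88, with a pseudocount of 5, which left 0 higher. These are 4.17% and 12.5% of the members, set against 12.1% higher and 19.1% lower among 15097 symbols past the same filter. Among the 22 members with at least 20 reads over both libraries the same 4 were past the rule, or 4.55% higher and 13.6% lower, and of 11479 symbols with that many reads 7.89% were higher and 10.9% lower. The median log2 fold of all 24 members was -0.04, beside -0.07 for all 15097 symbols past the filter. In RNA from whole cultures, fewer cells of a kind and less RNA per cell cannot be told apart.

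**Figure D2:**
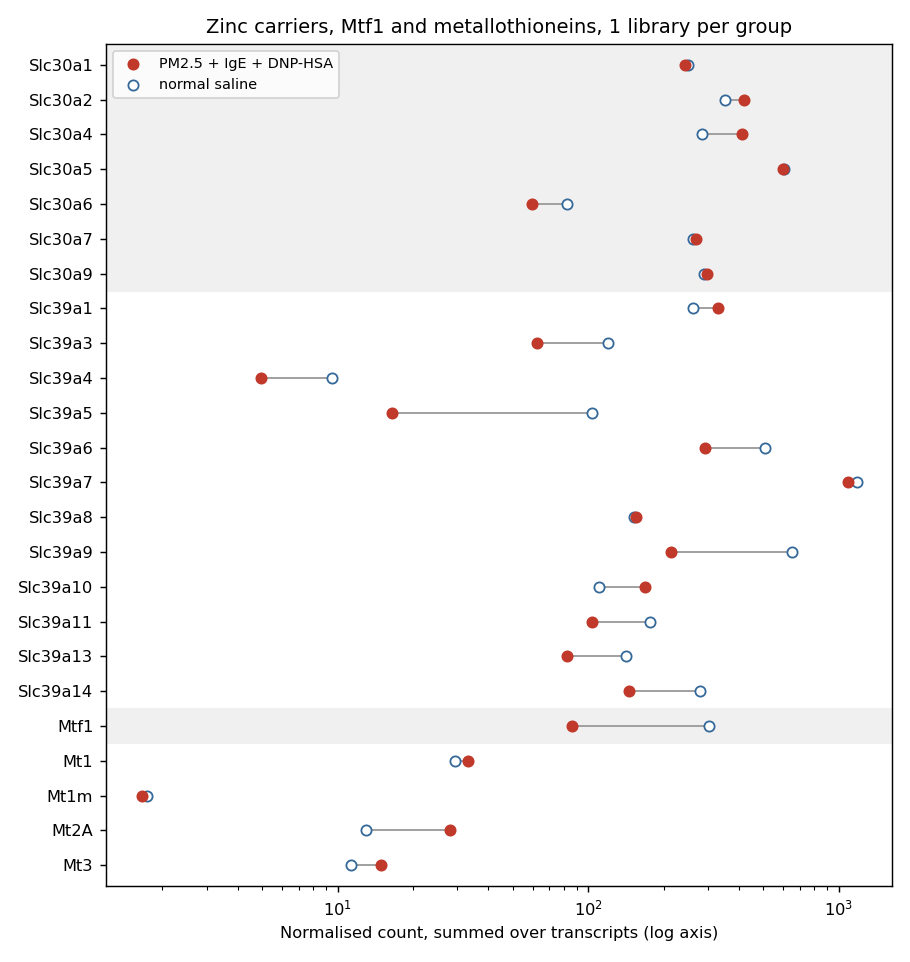
Normalised count of each member (log axis), summed over its transcripts, in the library given PM2.5 with IgE and DNP-HSA (filled red) and in the normal saline library (open blue), 1 library each. In the Slc30a rows the points lie close together apart from Slc30a4 (413 against 285) and Slc30a6 (59.5 against 82.4), whereas the points of Slc39a5, Slc39a9 and Mtf1 lie far apart, with 16.5, 215 and 85.9 in the treated library against 104, 653 and 303 in the saline library.

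Of the 7 efflux carriers, none was past 2-fold in either direction, and their log2 folds ran from -0.46 to 0.53 with a median of 0.04. All 7 had at least 20 reads over both libraries, and of symbols with that many 7.89% were higher and 10.9% lower. With 7 carriers, a count of 0 is near these shares. Slc30a1, the exporter at the plasma membrane, had a normalised count of 244.4 in the treated library and 251.5 in the saline library (log2 fold -0.04, interval -0.34 to 0.25). Its levels could not be told apart at this depth. Slc30a4, a carrier of endosomal and secretory vesicles, had 412.9 against 285.4, a log2 fold of 0.53 (interval 0.29 to 0.77, 250 against 329 reads). Slc30a2, which loads zinc into lysosomes and secretory vesicles, had 417.9 in the treated library and 350.4 in saline cells (0.25, interval 0.02 to 0.48). Intervals lay above 0 for these 2 of the 7 efflux carriers and below 0 for none. Among all symbols 22.8% lay above 0 and 26.8% below, so the number above is near the share of all symbols. With the library totals made equal, the interval of Slc30a2 held 0 (-0.03 to 0.43).

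Efflux carriers of the early secretory pathway, which supply zinc to enzymes made there, had intervals that held 0. Slc30a5 had 601.2 in the treated library and 605.4 in saline cells (log2 fold -0.01, interval -0.20 to 0.17). Its known partner Slc30a6 had the lowest fold of the family, with 59.5 in the treated library and 82.4 in saline cells (-0.46, interval -1.07 to 0.10, 36 against 95 reads). Slc30a7, which forms homodimers in the same compartment, had 269.2 against 261.1 (0.04). Slc30a9, linked to zinc export from mitochondria, had 298.9 in the treated library and 289.7 in the saline library (0.05, interval -0.22 to 0.31). The interval of Slc30a6 also allows a 2-fold lower level, so it was not shown to be level.

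Uptake carriers lay lower and spread more widely. Their median log2 fold was -0.78, with a range of -2.58 to 0.60. A value below 0 was found for 9 of 12, and for 8202 of 15097 symbols in all. Intervals lay below 0 for 7 of the 12 and above 0 for 2, where among all symbols 26.8% lay below and 22.8% above. The shares over all symbols include symbols with few reads, whose intervals are wide. By the 2-fold rule 0 were higher and 2 lower, or 16.7%, beside 19.1% lower among all symbols. Among the 11 uptake carriers with at least 20 reads the same 2 were lower, or 18.2%, beside 10.9% of all symbols with that many reads. The 218 other Slc symbols past the filter also had a median below 0, at -0.50, with 19 past 2-fold higher and 64 past 2-fold lower. Of these 218, 156 had a value below 0, and intervals lay below 0 for 95 and above 0 for 26. A low median was thus shared by carriers of other substrates.

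**Figure D3:**
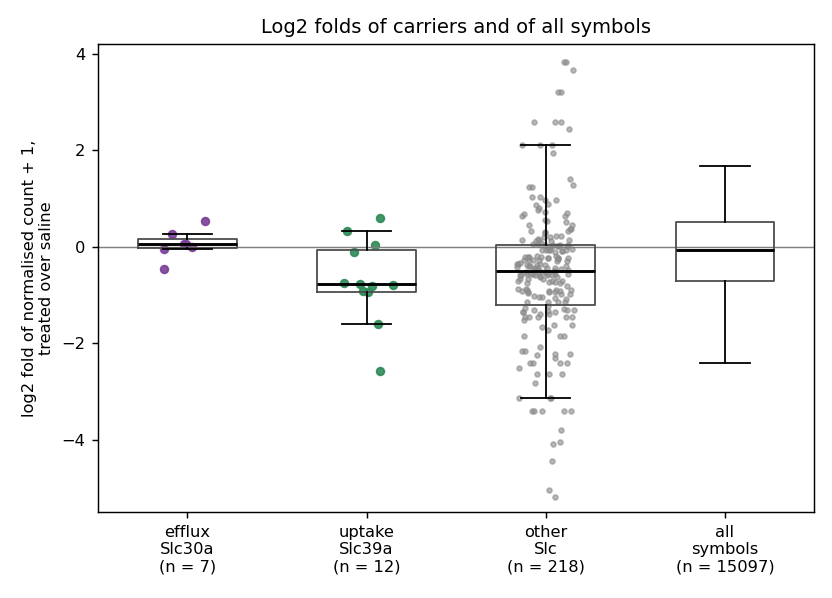
Log2 folds of normalised count plus 1, treated over saline, for 7 efflux carriers, 12 uptake carriers, 218 other Slc symbols (points) and 15097 symbols in all (box only). Boxes show quartiles and median and whiskers the 5th and 95th percentiles over genes, which are not replicates. The medians are 0.04, -0.78, -0.50 and -0.07.

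The lowest ratio among uptake carriers belonged to Slc39a5, a carrier of the basolateral membrane in gut and pancreas. Its normalised count was 16.5 in the treated library and 104.1 in the saline library, from 10 and 120 reads (log2 fold -2.58, interval -3.75 to -1.73). Slc39a9, a Golgi carrier, had 214.7 in the treated library and 653.1 in saline cells (-1.60, interval -1.88 to -1.33, 130 against 753 reads). For both, the whole interval lay beyond a 2-fold difference.

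Several carriers were lower but inside 2-fold. Slc39a14, which carries zinc, manganese and iron and is induced in liver during inflammation, had 145.3 in the treated library and 279.3 in saline cells (log2 fold -0.94, interval -1.30 to -0.60). Slc39a3, a plasma membrane carrier, had 62.8 against 120.6 (-0.93, interval -1.50 to -0.42). Slc39a13, a carrier of the Golgi and cytosolic vesicles needed for connective tissue, had 82.6 against 142.2 (-0.78). Each of these had an interval below 0, as did Slc39a11 (104.1 against 176.9, log2 fold -0.76). Slc39a4, the intestinal carrier, had 3 against 11 reads, and its interval of -3.43 to 0.98 allowed either direction.

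A few uptake carriers were level or higher. Slc39a10, a plasma membrane carrier, had 168.5 in the treated library and 111.0 in saline cells (log2 fold 0.60, interval 0.21 to 0.99). Slc39a6, its known partner in a heteromeric complex, went the other way, with 294.0 against 509.1 (-0.79, interval -1.04 to -0.55). Slc39a1, a broadly expressed carrier of the plasma membrane, had 328.7 against 261.9 (0.33, interval 0.06 to 0.59). Slc39a8, which takes up zinc and manganese, had 155.3 against 151.8 (0.03, interval -0.34 to 0.40). Slc39a7, the carrier that releases zinc from the endoplasmic reticulum, had 1092 in the treated library and 1180 in saline cells (-0.11, interval -0.25 to 0.02), and its interval lay below 0 with the library totals made equal (-0.30 to -0.03).

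**Figure D4:**
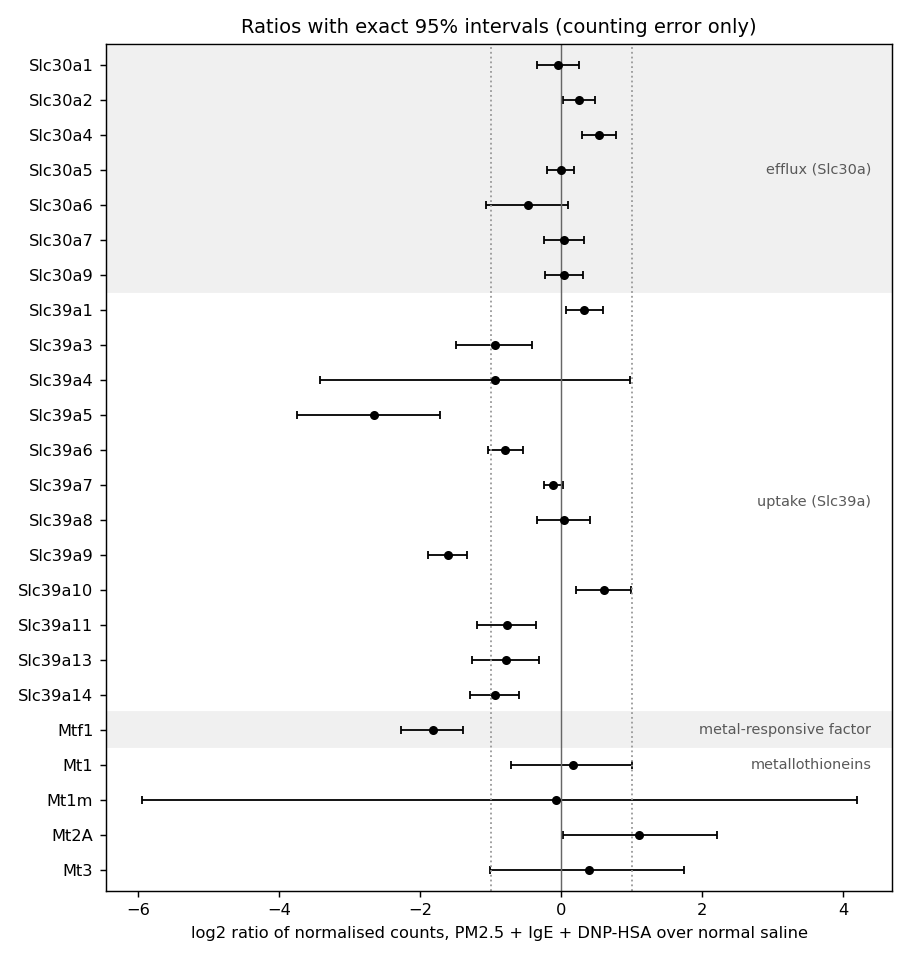
Log2 ratio of normalised counts, treated over saline, for the 24 members, with exact 95% intervals for counting error and dotted lines at 2-fold. Efflux carriers lie between log2 folds of -0.46 and 0.53, and 7 of 12 uptake carriers and Mtf1 have intervals below 0. Intervals are widest for Mt1m and Slc39a4, which had few reads.

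Added over the families, efflux carriers summed to a normalised count of 2304 in the treated library and 2126 in saline cells, or 108.4% of the saline sum. Uptake carriers summed to 2669 against 3700, or 72.1%. The log2 ratios of these sums were 0.12 (interval 0.02 to 0.21) and -0.47 (interval -0.55 to -0.39). With the library totals made equal, the interval of the efflux sum held 0 (-0.03 to 0.16) and that of the uptake sum ran from -0.61 to -0.44. Efflux carriers took 46.3% of 3011 carrier reads in the treated library (exact 95% interval 44.5% to 48.1%) and 36.5% of 6717 carrier reads in the saline library (35.3% to 37.7%). This share does not depend on how the libraries were scaled. Without the 3 uptake carriers that have several listed transcripts, a choice made after the values were seen, the share was 68.3% (66.2% to 70.3%) in the treated library and 61.0% (59.5% to 62.5%) in saline cells. The uptake sum was then 78.7% of its saline value. The 219 other Slc symbols together summed to 77.4% of their saline value, so a lower sum was shared by carriers of other substrates.

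The 3 carriers with several listed transcripts, Slc39a6, Slc39a7 and Slc39a9, each had a most-read transcript in the treated library that differed from the one in saline cells. Of 2355 symbols with at least 2 transcripts and at least 20 reads in each library, 20% did so. The labels do not say how reads were assigned to transcripts of 1 gene, and transcripts that share exons can exchange reads.

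For Slc39a9 the exchange was complete within the depth of the treated library. Transcript ENSRNOT00000089313 had 0 of 130 treated reads, with an interval of the share up to 2.80%. In saline cells it had 711 of 753 reads or 94.4% (interval 92.5% to 96.0%). Set against the value of 3 treated reads, it was 124-fold lower, and the interval of its log2 ratio had an upper limit of -6.66. Transcript ENSRNOT00000006798 went the other way, with a normalised count of 214.7 in the treated library, where it had all 130 reads, and of 36.4 in the saline library, where it had 42 reads (log2 fold 2.53, interval 2.05 to 3.10). The lower total of Slc39a9 therefore combined a transcript that was lower with one that was higher. A change in share at least as large as its 94.4 percentage points was found in 3.10% of the 2355 symbols, whose median largest change was 7.04 points.

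Slc39a6 showed the same form. Transcript ENSRNOT00000036306 had 1 of 178 treated reads (0.562%, interval 0.0142% to 3.09%) and 335 of 587 saline reads (57.1%, interval 53.0% to 61.1%), a log2 fold of -6.78 with an interval of the ratio from -12.8 to -4.97. Its partner ENSRNOT00000079381 had normalised counts of 292.3 in the treated library and 218.6 in saline cells, a log2 fold of 0.42 (interval 0.13 to 0.70). The low total of Slc39a6 thus lay in the first transcript.

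In Slc39a7 the total hid opposite differences. Transcript ENSRNOT00000000541 had 673.9 in the treated library and 255.0 in saline cells (log2 fold 1.40, interval 1.18 to 1.62), and made 61.7% of the treated reads against 21.6% of the saline reads. Transcript ENSRNOT00000077357 had 398.0 in the treated library and 896.8 in saline cells (-1.17, interval -1.38 to -0.97). The other two transcripts of the gene had few reads, 5 treated against 15 saline reads for one and 7 against 18 for the other. Changes in share as large as those of Slc39a6 (56.5 points) and Slc39a7 (40.1 points) were found in 10.7% and 15.9% of the 2355 symbols.

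**Figure D5:**
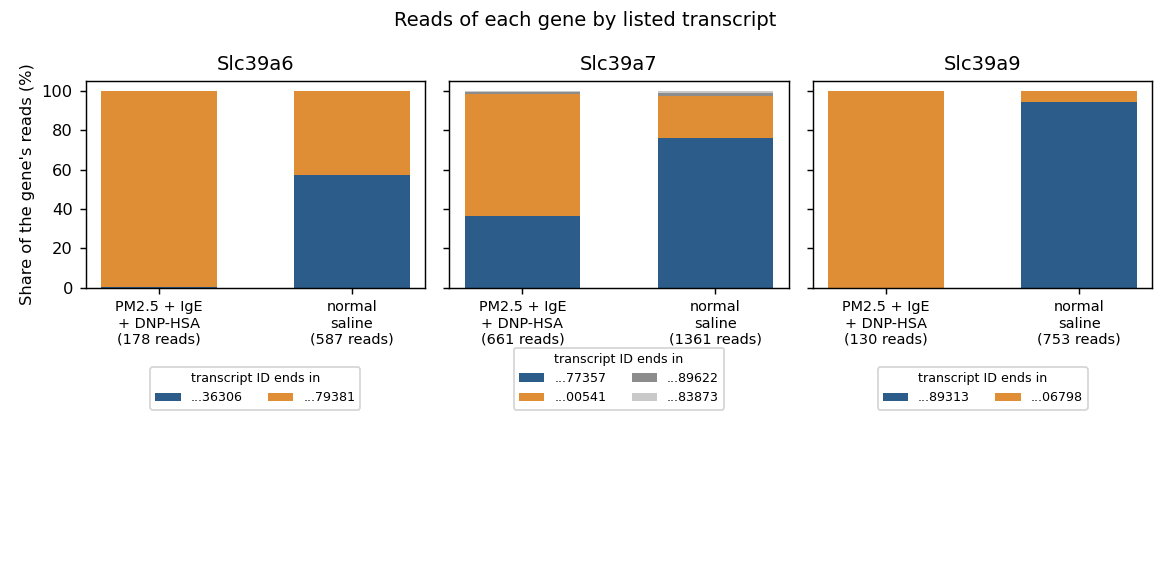
Share of the reads of Slc39a6, Slc39a7 and Slc39a9 taken by each listed transcript (percent), in the PM2.5 with IgE and DNP-HSA library (left bar) and in the saline library (right bar), with the number of reads below. The transcript that leads in the saline library (blue) has 0.562%, 36.5% and 0% of the treated reads against 57.1%, 76.0% and 94.4% of the saline reads.

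Mtf1, the zinc-sensing transcription factor, was lower in the treated library, with a normalised count of 85.9 against 302.7 in the saline library, or 28.4% (52 against 349 reads, interval of the log2 ratio -2.27 to -1.39). The metallothioneins had no interval below 0, and matches are printed above for 3 of the 4. Mt1 had 33.0 in the treated library and 29.5 in saline cells (log2 fold 0.16, interval -0.71 to 1.002, 20 against 34 reads). Mt2A, the companion metallothionein and a neighbour of Mt1 in the rat genome, had 28.1 against 13.0 (1.05, interval 0.02 to 2.21, 17 against 15 reads), and its interval held 0 with the library totals made equal (-0.03 to 2.16). Mt3, first known from brain, had 14.9 against 11.3 from 9 and 13 reads (0.37, interval -1.01 to 1.74). Mt1m, which RefSeq lists as a pseudogene and the authors' deposited table labels protein coding from Ensembl, had 1 against 2 reads. Over the 4, 47 treated and 64 saline reads gave summed normalised counts of 77.6 and 55.5 and an interval of the log2 ratio from -0.09 to 1.05, so a difference was not detectable at this depth. Metallothionein copies are similar in sequence, and reads could have been split between them.

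Genes around zinc were followed through 4 further lists, each described beside 12.1% of all symbols higher and 19.1% lower and a median of -0.07 over all symbols. Most listed genes had at least 20 reads over both libraries, and among symbols with that many the shares were 7.89% higher and 10.9% lower. Of 9 measured genes with MTF1 sites reported in mouse or human cells, 1 was past 2-fold higher and 0 were lower, with a median log2 fold of -0.10. The higher one was the placental growth factor Pgf, with 18 against 2 reads (3.49, interval 2.04 to 7.25). The most read members were the stress-responsive Ndrg1 (0.10, interval 0.03 to 0.18) and the transcriptional coregulator Cited2 (-0.90, interval -0.98 to -0.82). Of 5 measured genes for other zinc routes, 1 was higher and 0 lower, with a median of 0.32. Cbwd1, a GTPase of the zinc metallochaperone family, was the higher one (1.36, interval 0.79 to 1.99), while the lysosomal channel Mcoln1 was at -0.37 and the zinc-permeable channel kinase Trpm7 at 0.73.

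None of the 12 measured copper handling genes was past 2-fold in either direction, and their median log2 fold was 0.38. Atp7a, the copper pump of the Golgi, had 720.1 in the treated library and 384.2 in saline cells (0.90, interval 0.71 to 1.10), and the copper chaperone Atox1 was at 0.12. Among zinc-dependent enzymes, 17 of 18 measured genes were past the filter, with 1 higher, 1 lower and a median of 0.26. The carbonic anhydrase Car13 was higher (1.46, interval 1.03 to 1.92, 108 against 74 reads), and Alad, the zinc enzyme of haem synthesis, was lower (-1.31, interval -1.90 to -0.78, 34 against 162 reads). The most read enzymes were Car2 (0.47, interval 0.39 to 0.56) and the shedding protease Adam10 (-0.05, interval -0.16 to 0.05).

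In the authors' deposited table, none of the 29 member transcripts was among the 57 transcripts selected as significant. The smallest p among them in the authors' deposited table was 0.0693, for Slc39a9 transcript ENSRNOT00000006798, and the smallest adjusted p was 0.920. That was also the smallest adjusted p in the authors' deposited table over all 20367 transcripts, and the labels do not say how a p was obtained from 1 library per group.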

How the data were processed

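Strand-specific TruSeq libraries were made from total RNA, per the labels' protocols. Tools listed in the submitters' processing notes, with no role stated, are STAR 2.5, DESeq 1.22.1, FastQC and Cuffnorm. Not given in the sources used here are the genome build, the annotation release and the way reads were counted. The log2 values deposited for each transcript were undone (2 to their power, minus 1) and were then whole multiples of 1 step in 100% of cases (tolerance 1e-06 reads), and reads were recovered from these steps, worth 1.65 normalised counts in the treated library and 0.867 in the saline one. The authors' deposited p-values were used only as listed. A further 6 columns of per-sample values are copies of those used and were left aside.

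Transcripts were summed per symbol, leaving out 1276 without one. Folds use a pseudocount of 1 and a filter of at least 1 normalised count in at least 1 library. Exact Clopper-Pearson intervals (95%) of read shares cover counting error only, since reads are not independent molecules. Where a count was 0, a floor of 3 reads was used to state how many fold lower it was, and log2 folds kept the pseudocount. No count model was run. All members were described. From each further list, at most 4 symbols past 2-fold and the 2 with the highest summed normalised counts were named. Members and lists were chosen with earlier results of these data known. Promoters came from RefSeq (GRCr8). The interval and fold calculations were tested on simulated independent counts, judged at well-read symbols only. Such counts hold counting error alone, so this checked the arithmetic and not how well the intervals suit these libraries. Software was SciPy 1.17.1, pandas 2.3.3, NumPy 2.4.6, Matplotlib 3.10.9 and Python 3.11.15.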

Additional observations from a re-analysis of the deposited data

How the results depend on the processing

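Of the alternatives tried, equal library totals, TMM factors, the median of ratios and pseudocounts of 0.1 and 5 left all 24 members within their counting intervals. With a pseudocount of 5 the number of members past 2-fold higher was 0 in place of 1, Mt2A being the one concerned. Equal library totals put the median of the efflux carriers at -0.01 in place of 0.04. This change of sign lay within the counting interval of Slc30a7, the middle carrier, and no interval of the median itself was computed. Equal totals also ended the intervals above 0 of Slc30a2, Mt2A and the efflux sum and put that of Slc39a7 below 0. The rescalings shifted all log2 folds by -0.05 to 0.02. These shifts are small beside the intervals of the members, so for the rescalings staying within them was fixed in advance. With the transcript of highest mean level taken alone, 3 members moved, Slc39a6 to 0.42, Slc39a7 to -1.17 and Slc39a9 to -9.27. The value of Slc39a9 rests on 0 treated reads, so the pseudocount sets its size. The log2 ratio of the uptake sums was then -0.81 in place of -0.47. Without those 3 carriers, an alternative added after the data were examined, it was -0.35, and the median of the uptake carriers was -0.78. The number of all symbols past 2-fold was 1080 higher and 1477 lower with a filter of 10 normalised counts, 906 and 1256 with at least 20 reads and 1023 and 1650 with a pseudocount of 5, against 1826 and 2876. With a filter of 5 normalised counts 1894 were lower. No paired analysis was possible because each group has 1 library, and no replicate could be left out for the same reason. Depth limits Mt1m, Slc39a4 and Mt3 most.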
